A study of Mus musculus with 45 samples.

Results

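Most subunits of the mitochondrial respiratory chain and of ATP synthase are encoded in the nucleus, and 68 of the 13449 genes in the deposited mouse table carried the symbol of such a subunit. They were taken by name alone, as every gene whose symbol begins with Nduf (without the Ndufaf assembly factors), the genes Sdha to Sdhd, and every symbol beginning with Uqcr, with Cox4 to Cox8, or with Atp5. Complex I (NADH dehydrogenase) contributed 39 genes, complex II (succinate dehydrogenase) 4, complex III (cytochrome bc1) 8, complex IV (cytochrome c oxidase) 16 and complex V (ATP synthase) 1. Ndufa4, whose product is now placed with cytochrome c oxidase, was kept in complex I by its symbol. The gene of complex V was Atp5pb, and other ATP synthase genes are not analysed here. Of the 68, 67 were annotated as protein coding and 1, Cox5b-ps, as a pseudogene. Another annotated gene overlapped 20 of them, so reads of such a pair may be shared, and whether the counting used strand is not given in the sources at hand. Among the genes described below these pairs are Ndufa2 with Tmco6, Ndufa13 with Tssk6, Ndufb11 with Rbm10, Uqcrh with Gm12854, Uqcrc2 with Pdzd9, Uqcrq with Gdf9, Cox4i2 with Bcl2l1 and Ndufa4l2 with Shmt2.

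The libraries came from fetal livers of mice at E15.5, from crosses in which the mother brought VavCre on 1 chromosome and the father brought a floxed allele of Rpl5 or of Rps19 on both. The groups were VavCre Rpl5flox/+, Rpl5flox/+, VavCre Rps19flox/+ and Rps19flox/+, so every fetus carried a floxed allele, the flox/+ fetuses without Cre were the controls of their own line, and no group carried VavCre alone. The Vav promoter drives Cre in blood cells, so hepatocytes of the same livers keep the floxed allele intact. Rpl5 and Rps19 encode proteins of the large and the small ribosomal subunit. Homogenates were held for 15 min in 25 µg/mL emetine, which arrests ribosomes on mRNA, before Kit+ cells were taken by magnetic beads and Ter119+ cells were taken from what remained. Cells of fetuses of the same genotype were pooled in equal number, 24 pools in all, and poly(A) RNA was sequenced from the cytoplasm and the polysome fraction of a sucrose gradient. This gave 24 cytoplasm and 21 polysome libraries in 16 groups, of which 14 held 3 libraries. The exceptions were polysomes of the Rpl5 line, with 1 library from VavCre Rpl5flox/+ Kit+ cells and 2 from Rpl5flox/+ Ter119+ cells.

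Complex I passes electrons from NADH to ubiquinone, complex II does so from succinate, complex III passes them on to cytochrome c, and complex IV hands them to oxygen. Complexes I, III and IV pump protons, and complex V uses the gradient to make ATP. All of these except complex II also hold subunits encoded in mitochondrial DNA. Maturing erythroid cells use their mitochondria for haem synthesis and discard them at the end of maturation.

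Total reads, in mega (M), were 22.9 to 70.1 M in Kit+ cytoplasm, 45 to 123 M in Ter119+ cytoplasm, 1.01 to 37.6 M in Kit+ polysome and 1.02 to 39.8 M in Ter119+ polysome libraries. Of the polysome libraries 4 held under 2 M reads. In Ter119+ cells this was the third library labelled VavCre Rpl5flox/+ (1.02 M). In Kit+ cells it was the first and the third Rps19flox/+ library (1.01 M and 1.83 M) and the third of Rpl5flox/+ (1.81 M). Levels are given as normalized counts, which are reads divided by the library's size factor. Kit itself had 3.54, 40.5 and 83.4 normalized counts in control Ter119+ cytoplasm (lowest, median and highest of 6 libraries), against 1382, 1574 and 1971 in control Kit+ cytoplasm. Slc4a1, the band 3 anion exchanger of red cells, had 364400, 448200 and 777600 in control Ter119+ cytoplasm and 5825, 6568 and 9376 in control Kit+ cytoplasm, so both cell labels were borne out by these markers in the control libraries. In Kit+ cytoplasm the targeted gene was lower with VavCre in both lines. Rpl5 had 576, 579 and 437 in VavCre Rpl5flox/+, against 1096, 1112 and 930.3 in Rpl5flox/+ (adjusted p = 0.000287). Rps19 had 14490, 12570 and 11750 in VavCre Rps19flox/+, against 20140, 16200 and 17770 in Rps19flox/+ (adjusted p = 0.00191). Lower Rpl5 was not particular to the Rpl5 line, with 491, 748 and 691 in VavCre Rps19flox/+, against 1042, 986 and 866 in Rps19flox/+ Kit+ cytoplasm. Rps19 was higher in the Rpl5 line, at 25540, 24930 and 22610 in VavCre Rpl5flox/+, against 19230, 19810 and 16780 in Rpl5flox/+ Kit+ cytoplasm. In Ter119+ cytoplasm Rpl5 was higher, not lower, at 455, 496 and 549 in libraries labelled VavCre Rpl5flox/+ and 295, 351 and 459 in Rpl5flox/+ libraries (log2 change 0.44 ± 0.16 (SE), adjusted p = 0.0278). Rps19 had 24220, 24500 and 24160 in the same libraries labelled VavCre Rpl5flox/+, against 11180, 10220 and 13240. Cdkn1a had 7400, 8263 and 8091 there, against 130, 138.5 and 137. Why Rpl5 was not lower there was not tested. In the Rps19 line Rps19 had 10790, 13710 and 11570 in VavCre Rps19flox/+ and 13050, 13100 and 15380 in Rps19flox/+ Ter119+ cytoplasm (adjusted p = 0.302). Cdkn1a, a target of p53, was higher in every VavCre cytoplasm library than in its controls, by 4.99 and 5.77 on the log2 scale in Kit+ cells and by 5.72 and 6.39 in Ter119+ cells (Rpl5 and then Rps19).

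Nearly all of the 68 genes were read deeply in cytoplasm. The exceptions were the tissue isoforms Cox4i2, with a mean of 17.5 normalized counts over all libraries, Cox6a2 (14.1) and Cox7a1 (5.62), and the pseudogene Cox5b-ps (2.09), which had no read in 15, 19, 14 and 15 libraries in that order. Between 64 and 66 of the 68 had a mean of at least 10 normalized counts in the libraries of a comparison and were tested there, a filter that Cox4i2 or Cox6a2 passed in some comparisons only. In Kit+ cytoplasm Cox4i2 passed it only through its level in VavCre Rpl5flox/+ libraries (mean 60.6), so its calls there are a description only.

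A promoter window (250 bases before to 50 after the start, RefSeq, GRCm38.p6) was at hand for 54 of the 68 genes, which lie on 19 chromosomes. Each window was searched on both strands for motifs tied in the literature to genes of mitochondrial proteins. The letters searched for NRF1, those in capitals in the Cox6a1 and Ndufa11 sequences, were in 3 of 54 windows (5.56%), against 1.07% of all 27025 windows and 2.19% of the 10587 windows of genes in the table. The letters searched for YY1, those in capitals in the Ndufa9 and Ndufs7 sequences, were in 4 windows (7.41%, against 0.755% of all windows and 1.69% of those in the table). CCGGAAG, an ETS motif such as GABP binds, was in 11 windows (20.4%, against 9.93% of all and 19% of those in the table). The Sp letters GGGCGG were in 42.6% of the windows (67.0% of those in the table), CCAAT in 37.0% (43.2%) and TATAAA in 7.41% (9.22%). Stretches with the NRF1 and the YY1 letters in capitals are printed because for these motifs the share of the genes stood furthest above that in the table. A match is a description of the letters and not a site of binding, and the Uqcrc1 window held the NRF1 letters too.
Cox6a1 (chr5:115349086-115349145, minus strand, motif from base -162): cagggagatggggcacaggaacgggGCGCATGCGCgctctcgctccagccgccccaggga
Ndufa11 (chr17:56717677-56717736, plus strand, motif from base -60): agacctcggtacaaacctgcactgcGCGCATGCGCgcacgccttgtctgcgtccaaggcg
Ndufa9 (chr6:126849096-126849125, minus strand, letters from base 30): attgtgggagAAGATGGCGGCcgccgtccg
Ndufs7 (chr10:80249463-80249492, plus strand, letters from base 25): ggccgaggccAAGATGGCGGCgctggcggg
Ndufs6 (chr13:73328433-73328462, minus strand, letters from base 34): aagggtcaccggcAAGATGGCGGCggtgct
Ndufs4 (chr13:114388045-114388074, minus strand, letters from base 36): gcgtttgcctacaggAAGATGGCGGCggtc
In these 4 genes, all of complex I, the YY1 letters lay after the start and contain an ATG. mRNAs of ribosomal proteins begin with C and a run of pyrimidines (the TOP motif). A C followed by 4 pyrimidines stood at the annotated start of 2 of the 54 genes, Ndufb11 and Uqcrfs1 (3.7%), against 15 of 69 cytosolic ribosomal protein genes (21.7%) and 3.01% of all genes.

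In Kit+ cytoplasm of the Rpl5 line, mRNAs of the respiratory chain were higher with VavCre where they were called. Of 65 genes tested, 29 rose and none fell in VavCre Rpl5flox/+ libraries, where 37.2% of all genes were called (20.8% higher and 16.4% lower). Called means a Benjamini-Hochberg adjusted p under 0.05 over all genes tested. The median log2 change of the 65 was 0.25, against 0.03 over all genes. Those that rose were 18 of 39 in complex I, 2 of 8 in complex III, 9 of 13 in complex IV, and none in complexes II and V. The groups did not overlap, with VavCre above, for 37 of the 65, against 27.6% of all genes.

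Among complex I genes, Ndufv3, an accessory subunit beside the NADH-binding site, had 1509, 1609 and 1194 normalized counts in VavCre Rpl5flox/+ Kit+ cytoplasm, against 826, 782 and 716 in Rpl5flox/+ (log2 change 0.87 ± 0.10 (SE), adjusted p = 2.97e-05). Ndufa13, also known as GRIM-19, had 1734, 1633 and 1577, against 1090, 1099 and 1004 (0.62 ± 0.10 (SE), adjusted p = 0.000287). All VavCre libraries lay above all control libraries for both genes, though Ndufa13 overlaps Tssk6. Ndufa1 (0.51), Ndufa3 (0.49), Ndufa2 (0.43), Ndufa12 (0.42) and Ndufb11 (0.41) rose by less. In complex III the small subunit Uqcrq had 3420, 3494 and 2995, against 2603, 2472 and 2083 (0.47 ± 0.10 (SE), adjusted p = 0.00201). Uqcr10 had 2914, 2828 and 2526, against 2482, 2294 and 1990 (0.29 ± 0.09 (SE), adjusted p = 0.0245). The core proteins Uqcrc1 (0.05 ± 0.10 (SE), adjusted p = 0.715) and Uqcrc2 (0.13 ± 0.08 (SE), adjusted p = 0.229) were not called. In complex IV, Cox5a had 3854, 3574 and 3500, against 2838, 2841 and 2726 (0.38 ± 0.07 (SE), adjusted p = 0.00161), and Cox8a, another nuclear subunit of complex IV, had 6663, 6549 and 5774, against 5321, 4909 and 4372 (0.38 ± 0.10 (SE), adjusted p = 0.00861). Cox7a2 (0.25), Cox7b (0.40), Cox4i1 (0.27), Cox5b (0.26) and Cox6b1 (0.24) rose too. The 4 genes of succinate dehydrogenase lay between -0.14 (Sdhd) and 0.12 (Sdhb) on the log2 scale, with none called.

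Other mitochondrial lists and cell markers moved in the same libraries. With VavCre Rpl5flox/+ in Kit+ cytoplasm, mitochondrial ribosomal proteins were 29 higher and 6 lower of 78, respiratory chain assembly factors 16 higher and 2 lower of 44, enzymes of the TCA cycle 0 higher and 2 lower of 16 and mitochondrially encoded mRNAs 2 higher and 0 lower of 13. Cytosolic ribosomal proteins were 57 higher and 3 lower of 84, and glycolytic enzymes 10 higher and 2 lower of 16. Erythroid markers were 0 higher and 7 lower of 7, with a summed count of 39800 to 44000 in VavCre Rpl5flox/+ and 122000 to 166000 in Rpl5flox/+ libraries. Granulocyte and monocyte markers were 5 higher and 0 lower of 7 (summed counts 42900 to 78800, against 19900 to 21800), and hepatocyte markers 10 higher and 0 lower of 10 (21600 to 39600, against 5630 to 18000). Macrophage markers were 1 higher and 0 lower of 7 and B-lymphoid markers 0 higher and 4 lower of 4, and no gene of these lists was at 0 in these groups. In bulk samples fewer cells of a type and less RNA per cell cannot be told apart, and the part of the cell makeup in these results was not tested.

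The Rpl5 count in Kit+ cytoplasm depended on single libraries and on the scaling. It was 14 without Rpl5flox/+ replicate 3, and 17 without VavCre Rpl5flox/+ replicate 1 or without replicate 2, all of them higher. With libraries rescaled on genes with a mean of at least 500 normalized counts, 35 were higher and 0 lower, and with libraries scaled to their reads outside globins and Lars2, 15 were higher and 2 lower. The share of higher genes among all calls was 55.9%, and 45% under the second of these scalings.

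**Figure D1:**
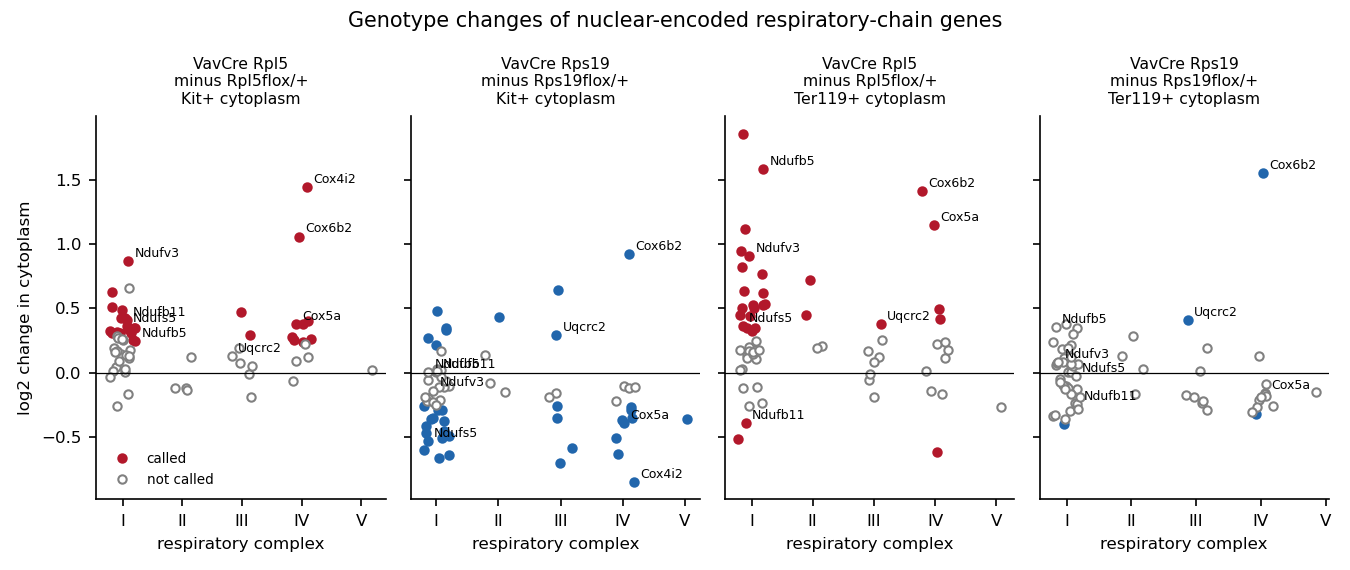
Log2 change in cytoplasm (y axis) of each respiratory chain gene, by complex (x axis), for VavCre against flox/+ in each line and cell type; filled points were called (red for Rpl5, blue for Rps19) and open points were not. In Kit+ cells filled points lie above 0 for Rpl5 (29 higher, 0 lower) and mostly below 0 for Rps19 (9 higher, 28 lower), in Ter119+ cells 27 were higher and 3 lower for Rpl5 on the deposited scale (62 higher and 0 lower when scaled to reads outside globins and Lars2), and Cox6b2 stands high in all 4 panels.

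In the Rps19 line the same genes in Kit+ cytoplasm went mostly the other way. Of 65 genes, 9 rose and 28 fell in VavCre Rps19flox/+ libraries, where 53.7% of all genes were called (27.6% higher and 26.1% lower). The median log2 change was -0.21, against 0.01 over all genes. By complex, 5 rose and 15 fell in complex I, 1 rose in complex II, 2 rose and 4 fell in complex III, 1 rose and 8 fell in complex IV, and Atp5pb of complex V fell. Under the rescaling on genes of at least 500 counts 7 were higher and 40 lower, and 8 and 35 when scaled to reads outside globins and Lars2.

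Core proteins and small subunits of complex III went opposite ways. Uqcrc1, a large core protein, had 6630, 5196 and 5350 in VavCre Rps19flox/+ Kit+ cytoplasm, against 3449, 3606 and 3863 in Rps19flox/+ (log2 change 0.64 ± 0.10 (SE), adjusted p = 0.000167), and the other core protein Uqcrc2 had 2935, 3312 and 3448, against 2509, 2784 and 2593 (0.29 ± 0.08 (SE), adjusted p = 0.00822). Uqcrh, the small hinge protein beside cytochrome c1, had 2266, 2071 and 1997, against 3800, 3017 and 3546 (-0.70 ± 0.10 (SE), adjusted p = 8.31e-05). Uqcrb had 872, 1043 and 1002, against 1519, 1404 and 1472 (-0.59 ± 0.11 (SE), adjusted p = 0.000464). Uqcr10 (-0.35) and Uqcr11 (-0.26), further small subunits, fell as well. For Uqcrc1, Uqcrc2, Uqcrh and Uqcrb the groups were fully apart, core proteins higher and small subunits lower.

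In complex I, Ndufv1, the subunit that binds NADH, had 3359, 2673 and 2621 in VavCre Rps19flox/+ Kit+ cytoplasm, against 2143, 2108 and 1898 (0.48 ± 0.12 (SE), adjusted p = 0.00358). Ndufa10 had 3183, 2895 and 2915, against 2253, 2392 and 2483 (0.33 ± 0.07 (SE), adjusted p = 0.00208), and Ndufb2 (0.34), Ndufa9 (0.27) and the core subunit Ndufs8 (0.21) rose too. Ndufa2, an accessory subunit of the NADH-oxidising arm, had 892, 803 and 795, against 1485, 1174 and 1314 (-0.66 ± 0.11 (SE), adjusted p = 0.00033), and Ndufb3 of the membrane arm had 613, 604 and 556, against 1043, 863 and 883 (-0.64 ± 0.11 (SE), adjusted p = 0.000259). Ndufa5 (-0.60), Ndufs5 (-0.53), Ndufb7 (-0.51), Ndufa3 (-0.49) and the core subunits Ndufs7 (-0.47) and Ndufv2 (-0.38) fell, so core and accessory subunits were among the called genes of both directions. In complex II, Sdhb, the iron-sulfur subunit, had 1786, 1609 and 1521, against 1149, 1210 and 1270 (0.43 ± 0.08 (SE), adjusted p = 0.000617), and Sdha (0.14 ± 0.10 (SE), adjusted p = 0.267), the flavoprotein, was not called. In complex IV, Cox7a2l, which joins complexes III and IV in supercomplexes, had 1609, 1435 and 1348, against 2051, 2028 and 2175 (-0.51 ± 0.08 (SE), adjusted p = 0.000132). Cox5a had 2094, 1952 and 1924, against 2794, 2420 and 2637 (-0.39 ± 0.07 (SE), adjusted p = 0.000695). Cox7c (-0.64), Cox7a2 (-0.27) and Cox6b1 (-0.35) fell beside them. Atp5pb, a peripheral stalk subunit of ATP synthase, had 3399, 4371 and 4472, against 5146, 5199 and 5232 (-0.36 ± 0.11 (SE), adjusted p = 0.0133).

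Beside these, cytosolic ribosomal proteins were 7 higher and 53 lower of 84 in VavCre Rps19flox/+ Kit+ cytoplasm, mitochondrial ribosomal proteins 19 higher and 24 lower of 78, assembly factors 17 higher and 8 lower of 44, TCA cycle enzymes 10 higher and 2 lower of 16 and glycolytic enzymes 14 higher and 1 lower of 16. Of the mitochondrially encoded mRNAs 0 higher and 1 lower of 13 were called. Erythroid markers were 0 higher and 3 lower of 7 (summed counts 57000 to 99900 in VavCre Rps19flox/+ and 111000 to 194000 in Rps19flox/+ libraries), granulocyte and monocyte markers 0 higher and 7 lower of 7 (3320 to 7020, against 14600 to 18700) and hepatocyte markers 2 higher and 0 lower of 10 (8250 to 11700, against 3630 to 9260). Macrophage markers were 1 higher and 1 lower of 7 and B-lymphoid markers 0 higher and 4 lower of 4; no gene of these lists was at 0, and the part of these cells in the result was not tested.

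The difference between the lines was itself tested, as the Rpl5 change minus the Rps19 change, each against its own controls. In Kit+ cytoplasm it was positive for 41 and negative for 6 of 65 genes, where 48.2% of all genes were called (23.2% positive and 25% negative), and its median was 0.52, against 0.04 over all genes. In complex I it was positive for 25 and negative for 4, in complex III for 5 and 1, in complex IV for 11 and 0, and in complex II Sdhb alone was called, with a negative difference (-0.31 ± 0.12 (SE), adjusted p = 0.0367). The difference was 1.01 ± 0.14 (SE), adjusted p = 0.000113 for Ndufv3, 1.09 ± 0.16 (SE), adjusted p = 0.000141 for Ndufa2, 0.89 ± 0.14 (SE), adjusted p = 0.000239 for Uqcrh, 0.64 ± 0.13 (SE), adjusted p = 0.00129 for Uqcr10, 0.77 ± 0.11 (SE), adjusted p = 8.58e-05 for Cox5a and 2.29 ± 0.37 (SE), adjusted p = 0.000239 for Cox4i2. On the negative side stood Ndufv1 (-0.74 ± 0.17 (SE), adjusted p = 0.00241) and Uqcrc1 (-0.59 ± 0.14 (SE), adjusted p = 0.00428), along with Ndufb2 (-0.51 ± 0.13 (SE), adjusted p = 0.00634), Ndufa10 and Ndufa9. Of the 29 genes that rose with Rpl5 and the 28 that fell with Rps19, 14 were shared: Cox4i2, Cox5a, Cox6b1, Cox7a2, Cox7b, Ndufa2, Ndufa3, Ndufa6, Ndufb1, Ndufb4, Ndufb8, Ndufs4, Ndufs5 and Uqcr10. Lists of this size among 65 genes share many names even when unrelated, so the overlap is a description only. Cox4i2, in these lists and among the differences, passed the filter only through its high group, as given above. Cox6b2 was the 1 gene that rose in both. Across the 65 genes the changes in the lines had a Pearson correlation of -0.18 (0.08 over all 10908 genes), which is across genes and describes these libraries only. Under the rescaling 47 were positive and 3 negative, with 60.8% of all calls positive against 48.1% on the deposited scale, and 40 and 6 when scaled to reads outside globins and Lars2.

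In Ter119+ cytoplasm the libraries labelled VavCre Rpl5flox/+ differed widely from Rpl5flox/+ libraries in their whole makeup. Globin mRNA took 28.3 to 40.0% of reads in libraries labelled VavCre Rpl5flox/+ and 52.0 to 63.4% in Rpl5flox/+ libraries. In this comparison 65.5% of all genes were called (35.3% higher and 30.1% lower). Of 64 respiratory chain genes, 27 rose and 3 fell on the deposited scale, with a median log2 change of 0.21 against 0.16 over all genes. Scaled to reads outside globins and Lars2, 62 were higher and none lower, and under the rescaling 61 and 0, while the median of all genes moved up by 0.64 and 0.51. The share of higher genes among all calls was 54% on the deposited scale, 79% outside globins and Lars2 and 74.9% under the rescaling. How many of the genes rose or fell therefore depended on the scaling.

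Complex I had 20 genes higher and 2 lower on the deposited scale. Ndufb5, a membrane-arm subunit, had 1259, 1227 and 1075 in libraries labelled VavCre Rpl5flox/+, against 389, 331 and 446 in Rpl5flox/+ (1.58 ± 0.14 (SE), adjusted p = 6.79e-07). Ndufb1 had 1562, 1708 and 1562, against 661, 673 and 885 (1.12 ± 0.16 (SE), adjusted p = 3.2e-05). Ndufa12 had 1894, 1897 and 1579, against 876, 992 and 895 (0.94 ± 0.14 (SE), adjusted p = 3.7e-05). Each of these stood above all its control libraries. Ndufv3 (0.90 ± 0.13 (SE), adjusted p = 5.04e-05), Ndufc2 (0.82), Ndufb3 (0.64) and Ndufab1 (0.62), the mitochondrial acyl carrier protein, rose by less. Ndufv1 had 2085, 1908 and 1840, against 3235, 2674 and 2481 (-0.51 ± 0.12 (SE), adjusted p = 0.00147). Ndufb11 had 2288, 2404 and 2037, against 2933, 3773 and 2296 (-0.39 ± 0.15 (SE), adjusted p = 0.0382). Both fell on the deposited scale, Ndufb11 with overlapping groups, and Ndufv1 had a log2 change of 0.06 under the rescaling and 0.21 outside globins and Lars2.

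All 4 genes of complex II had positive changes in Ter119+ cytoplasm, and 2 were called. Sdhd, a membrane anchor, had 3049, 3110 and 3316, against 1780, 1822 and 2156 (0.72 ± 0.13 (SE), adjusted p = 0.000302). Sdhb had 1365, 1262 and 1193, against 1008, 922 and 854 (0.45 ± 0.15 (SE), adjusted p = 0.0156). In complex III, Uqcrc2 had 3137, 3373 and 3264, against 2618, 2624 and 2279 (0.38 ± 0.11 (SE), adjusted p = 0.00838), again with no overlap. In complex IV, Cox5a had 2481, 2192 and 2272, against 918, 972 and 1247 (1.15 ± 0.14 (SE), adjusted p = 9.08e-06), so that the groups lay far apart. Cox7c (0.50) and Cox7a2l (0.42) rose as well. Cox6a1 had 5444, 6054 and 4858, against 8034, 10710 and 6764 (-0.62 ± 0.16 (SE), adjusted p = 0.00324), a fall on the deposited scale that was -0.04 under the rescaling and 0.10 outside globins and Lars2. Atp5pb was not called (-0.27 ± 0.13 (SE), adjusted p = 0.087).

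In the same Ter119+ libraries cytosolic ribosomal proteins were 78 higher and 1 lower of 84, mitochondrial ribosomal proteins 56 higher and 3 lower of 78, assembly factors 30 higher and 2 lower of 44, TCA cycle enzymes 7 higher and 2 lower of 16, glycolytic enzymes 11 higher and 4 lower of 16 and mitochondrially encoded mRNAs 5 higher and 0 lower of 13. Erythroid markers were 0 higher and 7 lower of 7, with a median log2 change of -2.39. Kit, the marker of the other cell fraction, had 759, 721 and 852 in libraries labelled VavCre Rpl5flox/+ Ter119+, against 27, 25.8 and 83.4 in Rpl5flox/+ libraries, so that the groups were far apart, and Slc4a1 had 67780, 86210 and 61080, against 661200, 777600 and 364400. Granulocyte and monocyte markers were 6 higher and 0 lower of 7 (summed counts 30300 to 62300 in libraries labelled VavCre Rpl5flox/+ and 5220 to 8780 in Rpl5flox/+ libraries), hepatocyte markers 2 higher and 0 lower of 10 (30500 to 46600, against 24800 to 39100), macrophage markers 0 higher and 1 lower of 7 and B-lymphoid markers 1 higher and 0 lower of 4. No gene of these lists was at 0, and the part of other cells, Kit+ cells included, in the result was not tested.

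The Rps19 line changed few of these genes in Ter119+ cytoplasm. Of 64, 2 rose and 2 fell, where 25.8% of all genes were called (12.5% higher and 13.3% lower), and the median log2 change was -0.08, against -0.03 over all genes. Cox6b2 rose, as given below, and so did Uqcrc2, which had 3145, 3313 and 3088 in VavCre Rps19flox/+ and 2261, 2667 and 2272 in Rps19flox/+ libraries (0.41 ± 0.11 (SE), adjusted p = 0.016), although it overlaps Pdzd9. Ndufb7 had 2096, 2318 and 2063, against 2622, 2760 and 3188 (-0.40 ± 0.13 (SE), adjusted p = 0.0337). Cox7a2l had 1516, 1788 and 1561, against 1952, 1932 and 2190 (-0.32 ± 0.11 (SE), adjusted p = 0.0482; adjusted p = 0.0526 with the replicate number as a block). No VavCre library of these genes overlapped a control library. The count was 2 without any one of the VavCre Rps19flox/+ libraries or without Rps19flox/+ replicate 1, and 3 without Rps19flox/+ replicate 2 or 3. Under the scalings the genes that fell were no longer called (6 higher and 0 lower rescaled, 8 and 0 outside globins and Lars2; of all calls 61% and 71.2% were higher, against 48.4% on the deposited scale). Globin mRNA took 46.7 to 49.1% of reads in VavCre Rps19flox/+ and 54.6 to 57.5% in Rps19flox/+ libraries. Kit had 363, 230.1 and 332 in VavCre Rps19flox/+ and 68, 54 and 3.54 in Rps19flox/+ Ter119+ cytoplasm, with every VavCre library above every control library. Erythroid markers were 0 higher and 1 lower of 7, granulocyte and monocyte markers 0 higher and 5 lower of 7, macrophage markers 0 higher and 6 lower of 7 and hepatocyte markers 0 higher and 0 lower of 10; their part was not tested.

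The difference between the lines in Ter119+ cytoplasm was positive for 16 and negative for 1 of 64 genes (41.5% of all genes called, 20.5% positive and 20.9% negative), with a median of 0.30 against 0.10. It was 1.30 ± 0.20 (SE), adjusted p = 0.000241 for Cox5a, 1.23 ± 0.20 (SE), adjusted p = 0.000423 for Ndufb5, 1.07 ± 0.22 (SE), adjusted p = 0.00206 for Ndufb1, 0.74 ± 0.16 (SE), adjusted p = 0.0023 for Cox7a2l and 0.69 ± 0.19 (SE), adjusted p = 0.00964 for Sdhd, and negative for Ndufv1 (-0.44 ± 0.16 (SE), adjusted p = 0.0448), a call that was lost without any one of 9 of the 12 libraries. Under the scalings 48 (rescaled) and 49 (outside globins and Lars2) were positive and none was negative, and 74.6% and 75.4% of all calls were positive, against 49.5% on the deposited scale.

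The genotype changes were also compared between cell types. With Rpl5, the Ter119+ change minus the Kit+ change was positive for 11 and negative for 4 of 65 genes (48.4% of all genes called, 25.8% positive and 22.6% negative). Its median was 0.00, against 0.10 over all genes. In the Ter119+ libraries labelled VavCre Rpl5flox/+, Rpl5 itself was not lower, as given above. Ndufb5 differed by 1.33 ± 0.16 (SE), adjusted p = 1.22e-06, Ndufc2 by 0.64 ± 0.14 (SE), adjusted p = 0.00104, Cox7a2l by 0.48 ± 0.12 (SE), adjusted p = 0.00284, Sdhd by 0.86 ± 0.15 (SE), adjusted p = 6.41e-05 and Cox5a by 0.77 ± 0.15 (SE), adjusted p = 0.000312. Ndufb7 was negative (-0.52 ± 0.17 (SE), adjusted p = 0.0122). Ndufb11 (-0.80 ± 0.18 (SE), adjusted p = 0.00108) and Cox6a1 (-0.71 ± 0.18 (SE), adjusted p = 0.00247) were negative on the deposited scale too, and 0.00 and 0.09 outside globins and Lars2, where 58 genes were positive and none negative (24 and 2 rescaled). The share of positive differences among all calls was 53.3%, against 64.4% rescaled and 88% outside globins and Lars2. With Rps19, 3 were positive and 1 negative (12.3% of all genes called, 3.93% positive and 8.35% negative), these being Uqcrb (0.60 ± 0.17 (SE), adjusted p = 0.0226), Ndufs4 (0.53 ± 0.16 (SE), adjusted p = 0.032), Ndufs5 (0.51 ± 0.14 (SE), adjusted p = 0.0208) and Ndufv1 (-0.56 ± 0.16 (SE), adjusted p = 0.0291). This count of 4 was 1 without any one of Rps19flox/+ Kit+ replicate 1, VavCre Rps19flox/+ Kit+ replicate 1 and VavCre Rps19flox/+ Ter119+ replicates 2 and 3, 2 without Rps19flox/+ Kit+ replicate 3, and 8 without Rps19flox/+ Ter119+ replicate 3. Under the scalings 10 (rescaled) and 11 (outside globins and Lars2) were positive and none negative. Of all calls with Rps19, 32% were positive on the deposited scale, 52.9% rescaled and 77.7% outside globins and Lars2.

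Cox6b2 was the 1 gene of the 68 that rose in cytoplasm of both lines and both cell types. It encodes an isoform of the Cox6b subunit of complex IV that is known from testis and sperm, while Cox6b1 encodes the widely expressed isoform. In Kit+ cytoplasm Cox6b2 had 1113, 1222 and 1250 normalized counts in VavCre Rpl5flox/+, against 540, 583 and 574 in Rpl5flox/+ libraries (1.06 ± 0.09 (SE), adjusted p = 1.38e-06). In VavCre Rps19flox/+ it had 1094, 924 and 970.3, against 506, 539 and 511 in Rps19flox/+ (0.92 ± 0.09 (SE), adjusted p = 2.73e-06). In Ter119+ cytoplasm it had 3151, 3960 and 2915 in libraries labelled VavCre Rpl5flox/+, against 1309, 1599 and 905 (1.41 ± 0.20 (SE), adjusted p = 2.74e-05), and 3191, 3623 and 3206 in VavCre Rps19flox/+, against 975, 1060 and 1381 (1.55 ± 0.20 (SE), adjusted p = 0.000151). In all 4 comparisons every VavCre library lay above every control library, and the difference between the lines was not called in Kit+ (0.14 ± 0.12 (SE), adjusted p = 0.354) or Ter119+ cells (-0.14 ± 0.28 (SE), adjusted p = 0.707). Cox6b1 had 4489, 4389 and 4052, against 3728, 3912 and 3311 in the Rpl5 line, and 3283, 2855 and 2808, against 4010, 3692 and 3685 in the Rps19 line of Kit+ cytoplasm. It rose in the first (0.24) and fell in the second (-0.35), and was not called in Ter119+ cytoplasm (0.18 and -0.17).

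On polysomes Cox6b2 had 1683, 2331 and 2127 in VavCre Rps19flox/+ Kit+ libraries, against 810, 744 and 1456 in Rps19flox/+ (1.07 ± 0.35 (SE), adjusted p = 0.0791). In Ter119+ polysomes it had 7438, 6645 and 5522, against 1107, 2307 and 954 (2.26 ± 0.45 (SE), adjusted p = 0.0453), a call lost on log2 of the normalized count plus 1 (adjusted p = 0.0612) and with no filter on low counts (adjusted p = 0.063), at log2 changes of 2.27 and 2.26. The 1 VavCre Rpl5flox/+ Kit+ polysome library had 758, against 718, 478 and 679, and the Ter119+ ones had 2456, 4438 and 1370, against 2708 and 2862, so the Rps19 groups were fully apart in both cell types, while the Rpl5 groups overlapped in Ter119+ cells and had 1 VavCre library in Kit+ cells.

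The last 100 bases before the starts of both isoform genes are shown because Cox6b2 and Cox6b1 code for the same subunit and did not change together. Capitals mark the CCAAT letters in both and the ETS letters in Cox6b1, where Cox6b2's CCAAT and Cox6b1's ETS letters are read on the other strand.
Cox6b2 (chr7:4753095-4753194, minus strand, CCAAT box from base -9): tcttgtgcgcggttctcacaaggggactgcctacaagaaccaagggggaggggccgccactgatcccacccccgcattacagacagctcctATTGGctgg
Cox6b1 (chr7:30626115-30626214, minus strand, CCAAT from base -74, ETS letters from base -28): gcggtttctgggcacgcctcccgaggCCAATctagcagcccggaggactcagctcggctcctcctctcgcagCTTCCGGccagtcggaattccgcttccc
The Cox6b2 window of 300 bases held CCAAT and Sp letters, and that of Cox6b1 held CCAAT and ETS letters; neither held the NRF1, YY1 or TATAAA letters.

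**Figure D2:**
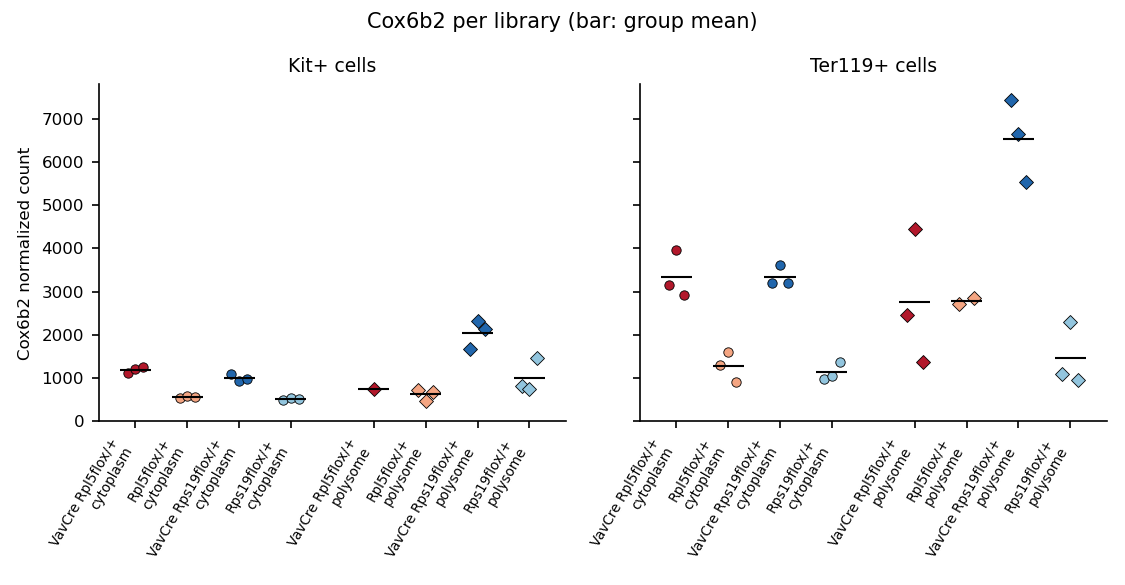
Cox6b2 normalized count (y axis) in each library (points) by group (x axis), with bars for group means, in the cytoplasm and polysome fractions of Kit+ and Ter119+ cells. In cytoplasm all VavCre libraries (924 to 1250 in Kit+, 2915 to 3960 in Ter119+) lie above all control libraries (506 to 583 in Kit+, 905 to 1599 in Ter119+).

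The other isoform genes did not share this pattern. Cox4i2, the lung isoform of subunit 4, had 78.2, 70.7 and 32.9 normalized counts in VavCre Rpl5flox/+ Kit+ cytoplasm, against 14.3, 11.6 and 14.4 in Rpl5flox/+ (1.44 ± 0.26 (SE), adjusted p = 0.000803), and 3.42, 3.47 and 1.74 in VavCre Rps19flox/+, against 6.72, 13.3 and 17.6 in Rps19flox/+ (-0.85 ± 0.26 (SE), adjusted p = 0.0137). In Ter119+ cytoplasm it had 35.9, 29.9 and 19.9 in libraries labelled VavCre Rpl5flox/+ and 4.21, 0 and 1.28 in Rpl5flox/+ libraries, below the level needed for a test. In Kit+ cells these Cox4i2 counts were thus higher with VavCre in the Rpl5 line and lower in the Rps19 line. The gene was tested there only through the group where it was high, so its adjusted p-values lend no support. Reads of the overlapping Bcl2l1 also cannot be told apart from its own if strand was not used. Cox4i1, the common isoform, had 9019, 8214 and 7787, against 7088, 6983 and 6581 with Rpl5, and 7133, 6049 and 5987, against 7209, 6465 and 6919 with Rps19 in Kit+ cytoplasm. Cox6a2, the heart and muscle isoform, had 0.822, 0.385 and 0.579 in VavCre Rps19flox/+ Kit+ cytoplasm, against 15.1, 8.89 and 6.08 in Rps19flox/+, too few to be tested. Cox7a1, the muscle isoform, had 9.65, 13.7 and 9.13, against 5.02, 4.5 and 2.64 with Rpl5. Ndufa4l2, a paralogue of Ndufa4 known to be induced by hypoxia, had 318, 146 and 324 in Ter119+ libraries labelled VavCre Rpl5flox/+, against 37.9, 76 and 66.7 (1.86 ± 0.61 (SE), adjusted p = 0.016), and 497, 239.9 and 516, against 200.5, 179 and 407 in Kit+ cytoplasm (0.66 ± 0.49 (SE), adjusted p = 0.322). It varied several-fold between libraries of the same group and overlaps Shmt2. Ndufa4 had 3363, 3770 and 3140, against 3193, 3131 and 2650 with Rpl5 and 2165, 2201 and 2028, against 3061, 2738 and 2956 with Rps19 in Kit+ cytoplasm.

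The share of a library's reads that fell on the 68 genes was computed outside globins and Lars2, an mRNA that took up to 54.9% of reads in a polysome library (globin genes excluded with it for their size in Ter119+ cells). In Kit+ cytoplasm it was 1.51 to 1.61% in VavCre Rpl5flox/+ and 1.4 to 1.48% in Rpl5flox/+ libraries, and 1.24 to 1.36% in VavCre Rps19flox/+ and 1.4 to 1.49% in Rps19flox/+ libraries. In Ter119+ cytoplasm it was 1.25 to 1.37% in libraries labelled VavCre Rpl5flox/+ and 0.637 to 0.814% in Rpl5flox/+ libraries. For Rps19 it was 0.88 to 1.03% in VavCre Rps19flox/+ and 0.776 to 0.982% in Rps19flox/+ Ter119+ cytoplasm, where the groups overlapped. The Rpl5 groups were apart in both cell types with VavCre above, and the Rps19 groups were apart in Kit+ cells with VavCre below. With 3 libraries against 3, an exact permutation test cannot give a two-sided p under 0.10, so none is given. In polysomes the share of every library was above that of every cytoplasm library of the same cells and genotype, at 2.17 to 3.16% in the 6 control Kit+ libraries and 1.51 to 2.53% in the 5 control Ter119+ libraries. Mitochondrially encoded mRNAs took 3.08 to 6.37% of reads in VavCre Rpl5flox/+ and 2.68 to 4.64% in Rpl5flox/+ Kit+ cytoplasm, and 1.48 to 3.82% in VavCre Rps19flox/+ and 3.21 to 3.44% in Rps19flox/+ Kit+ cytoplasm, with overlap in both lines.

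**Figure D3:**
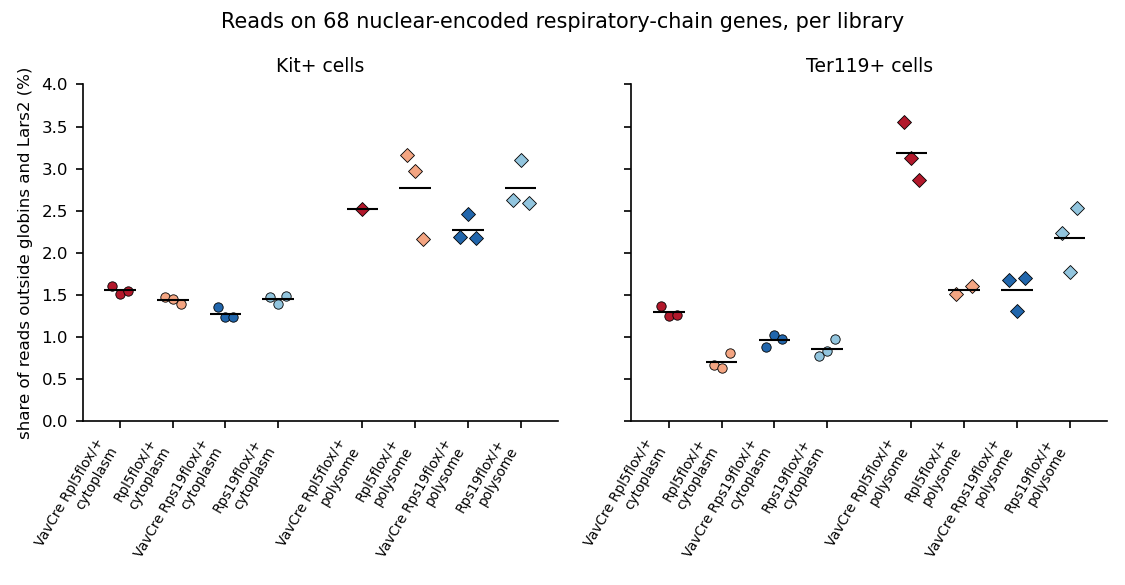
Share of reads outside globins and Lars2 (%, y axis) that fell on the 68 respiratory chain genes in each library (points), by group (x axis), with bars for group means, in a panel for each cell type. In Ter119+ cytoplasm the libraries labelled VavCre Rpl5flox/+ (1.25 to 1.37%) lie above the Rpl5flox/+ libraries (0.637 to 0.814%), and in Kit+ cytoplasm VavCre Rps19flox/+ (1.24 to 1.36%) lies below Rps19flox/+ (1.4 to 1.49%).

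In control cells, Ter119+ cytoplasm differed from Kit+ cytoplasm for most genes of the chain, but in no common direction on the deposited scale. Of 64, 25 were higher and 18 lower in Ter119+ libraries, where 78.7% of all genes were called (35.9% higher and 42.8% lower), and the median was -0.01, against -0.13 over all genes. In complex I 13 were higher and 12 lower, in complex III 2 and 0, in complex IV 9 and 2, Atp5pb was higher, and all 4 genes of complex II were lower. When libraries were scaled to reads outside globins and Lars2, 2 were higher and 60 lower, and 9 and 41 when rescaled. The share of higher genes among all calls was then 18.1% and 30.9%, against 45.6%. 

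Ndufb11, an accessory subunit of complex I that overlaps Rbm10, had 2296, 2808 and 3773 normalized counts in control Ter119+ cytoplasm (lowest, median and highest of 6), against 1069, 1137 and 1287 in Kit+ (1.28 ± 0.10 (SE), adjusted p = 1.87e-08). Cox6a1 had 6764, 7995 and 10710, against 3185, 3472 and 3708 (1.23 ± 0.10 (SE), adjusted p = 1.97e-08). Cox6b2 had 905, 1184 and 1599, against 506, 539 and 583 (1.10 ± 0.12 (SE), adjusted p = 6.64e-07). At the other end Ndufb5 had 331, 429 and 507, against 1188, 1302 and 1505 (-1.62 ± 0.10 (SE), adjusted p = 7.94e-10), and Ndufc2 differed by -0.90 ± 0.09 (SE), adjusted p = 1.7e-07. Cox5a had 918, 1174 and 1426, against 2420, 2760 and 2841 (-1.24 ± 0.10 (SE), adjusted p = 1.73e-08). Sdhd had 1780, 2002 and 2494, against 4100, 4389 and 4706 (-1.10 ± 0.09 (SE), adjusted p = 1.07e-08). For the 6 of these genes given with ranges, the cell types did not overlap. They were picked for a small adjusted p or as isoforms, so this lack of overlap is a description only. Ndufa11 was higher (0.78 ± 0.09 (SE), adjusted p = 1.11e-06) and Cox7c lower (-0.53 ± 0.11 (SE), adjusted p = 0.000334). Sdhc (-0.47 ± 0.08 (SE), adjusted p = 5.1e-05), Sdha (-0.37) and Sdhb (-0.31) were lower with Sdhd, and in complex III Uqcrh (0.46 ± 0.10 (SE), adjusted p = 0.000759) and Uqcrq (0.40 ± 0.09 (SE), adjusted p = 0.000947) were higher. Atp5pb had 6820, 7568 and 9335, against 4593, 5216 and 5672 (0.56 ± 0.09 (SE), adjusted p = 2.65e-05). In the same comparison mitochondrial ribosomal proteins were 6 higher and 65 lower of 78, assembly factors 5 higher and 37 lower of 44, TCA cycle enzymes 4 higher and 8 lower of 16 and glycolytic enzymes 3 higher and 12 lower of 16.

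The controls were also compared on polysomes, where 15 of 66 genes were higher and 10 lower in Ter119+ libraries (23.7% of all genes called, 16.4% higher and 7.33% lower), with a median of 0.09 against 0.56 over all genes. Ndufb11 (1.25 ± 0.31 (SE), adjusted p = 0.0054), Ndufb9 (0.91 ± 0.24 (SE), adjusted p = 0.00827), Uqcrb (1.27 ± 0.39 (SE), adjusted p = 0.0246) and Uqcrc2 (1.25 ± 0.43 (SE), adjusted p = 0.0433) were higher. Cox8a (1.42 ± 0.28 (SE), adjusted p = 0.000797), Cox6a1 (1.28 ± 0.23 (SE), adjusted p = 0.000345) and Atp5pb (1.16 ± 0.27 (SE), adjusted p = 0.00348) were higher as well, and Ndufa5 (-1.88 ± 0.30 (SE), adjusted p = 0.000145), Ndufb3 (-1.65 ± 0.29 (SE), adjusted p = 0.000324) and Cox5a (-1.64 ± 0.29 (SE), adjusted p = 0.000359) lower. Under the scalings 6 were higher and 24 lower (rescaled), and 3 and 25 outside globins and Lars2, with 56.6% and 50.4% of all calls higher, against 69.1%.

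The polysome fraction held more of most of these mRNAs, relative to other genes, than the cytoplasm fraction of the same pool. In control Kit+ cells 36 of 66 genes were higher and 8 lower on polysomes, where 45.1% of all genes were called (7.69% higher and 37.4% lower), and the median was 0.70, against -1.32 over all genes. In control Ter119+ cells 40 of 64 were higher and 3 lower (26.7% of all genes called, 4.81% higher and 21.9% lower), with a median of 0.87 against -0.66. The direction held under both scalings, with 39 higher and 5 lower (rescaled) and 29 and 12 (outside globins and Lars2) in Kit+ cells, and 51 and 0 or 45 and 0 in Ter119+ cells. The share of higher genes among all calls in Ter119+ cells was 18%, against 50.5% rescaled and 34.8% outside globins and Lars2. The fractions also differed in depth and in Lars2. Control Kit+ polysome libraries held 1.01 to 7.17 M reads, 10.3 to 54.9% of them on Lars2, and control Kit+ cytoplasm 29.3 to 41.7 M and 0.559 to 2.12%. Control Ter119+ polysome libraries held 4.59 to 39.8 M and 0.165 to 17.3%, and control Ter119+ cytoplasm 45 to 123 M and 0.305 to 1.06%. The part of depth in these differences was not tested.

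Small accessory subunits of complex I led this order. Ndufb7, which faces the intermembrane space, had 14370, 19360 and 22620 normalized counts on control Kit+ polysomes (lowest, median and highest of 6), against 1529, 1635 and 1934 in cytoplasm (3.47 ± 0.11 (SE), adjusted p = 8.67e-08). On control Ter119+ polysomes it had 7947, 12250 and 19860 (of 5), against 2361, 2691 and 3188 in cytoplasm (2.17 ± 0.20 (SE), adjusted p = 0.000291). Ndufa5 had 10860, 11640 and 12760, against 1025, 1174 and 1329 in Kit+ cells (3.31 ± 0.12 (SE), adjusted p = 1.55e-07). Ndufa3 had 8683, 11590 and 24040, against 967, 1111 and 1254 (3.45 ± 0.20 (SE), adjusted p = 3.5e-06). Ndufa2 (3.34) and Ndufa11 (3.20) were near them, and in complex I 24 genes were higher and 1, Ndufa10 (-0.85 ± 0.21 (SE), adjusted p = 0.0115), was lower.

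Complex III was split again by its subunits. Uqcr11 had 7879, 15160 and 19030 on control Kit+ polysomes, against 2208, 2436 and 2629 in cytoplasm (2.47 ± 0.15 (SE), adjusted p = 4.37e-06). Uqcrh had 12100, 19350 and 22190, against 3017, 3591 and 3800 (2.33 ± 0.14 (SE), adjusted p = 4.05e-06). Uqcrc2 had 166, 843 and 1158, against 2427, 2641 and 2788 (-1.89 ± 0.33 (SE), adjusted p = 0.00206), and Uqcrc1 (-0.46) and Uqcrfs1 (-0.62 ± 0.16 (SE), adjusted p = 0.014), the Rieske iron-sulfur protein, were lower too. In complex IV, Cox6b1 had 10230, 19330 and 30390, against 3311, 3710 and 4010 (2.31 ± 0.17 (SE), adjusted p = 1.07e-05), Cox7c (1.75), Cox5a (1.71) and Cox5b (1.37 ± 0.11 (SE), adjusted p = 2.44e-05) were higher, and Cox7b (-0.57 ± 0.20 (SE), adjusted p = 0.0432) was the 1 gene that was lower. In complex II none was higher in Kit+ cells. Sdhd had 831, 1022 and 1925, against 4100, 4389 and 4706 (-1.93 ± 0.20 (SE), adjusted p = 0.000112), Sdhc was lower (-1.14 ± 0.17 (SE), adjusted p = 0.000706), and Sdha (-0.40 ± 0.16 (SE), adjusted p = 0.0633) and Sdhb (-0.15 ± 0.22 (SE), adjusted p = 0.584) were not called. Atp5pb had 2063, 2539 and 3414 on polysomes, against 4593, 5216 and 5672 in cytoplasm (-1.02 ± 0.14 (SE), adjusted p = 0.000372). In control Ter119+ cells Ndufa2 (2.22 ± 0.20 (SE), adjusted p = 0.000291), Uqcr11 (2.12 ± 0.15 (SE), adjusted p = 0.000264), Uqcrh (2.02 ± 0.16 (SE), adjusted p = 0.000264), Cox7c (1.64 ± 0.14 (SE), adjusted p = 0.000291) and Cox6c (1.48 ± 0.14 (SE), adjusted p = 0.000316) were higher on polysomes. The genes that were lower were Ndufs1 (-0.73 ± 0.19 (SE), adjusted p = 0.0188), Uqcrc2 (-0.62 ± 0.19 (SE), adjusted p = 0.0354) and Sdha (-0.53 ± 0.17 (SE), adjusted p = 0.0392). Both Ndufs1 and Uqcrc2 were no longer called when libraries were rescaled (log2 -0.30 and -0.19), and Uqcrc2 also not with voom (adjusted p = 0.0609) or with no filter (adjusted p = 0.0598).

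**Figure D4:**
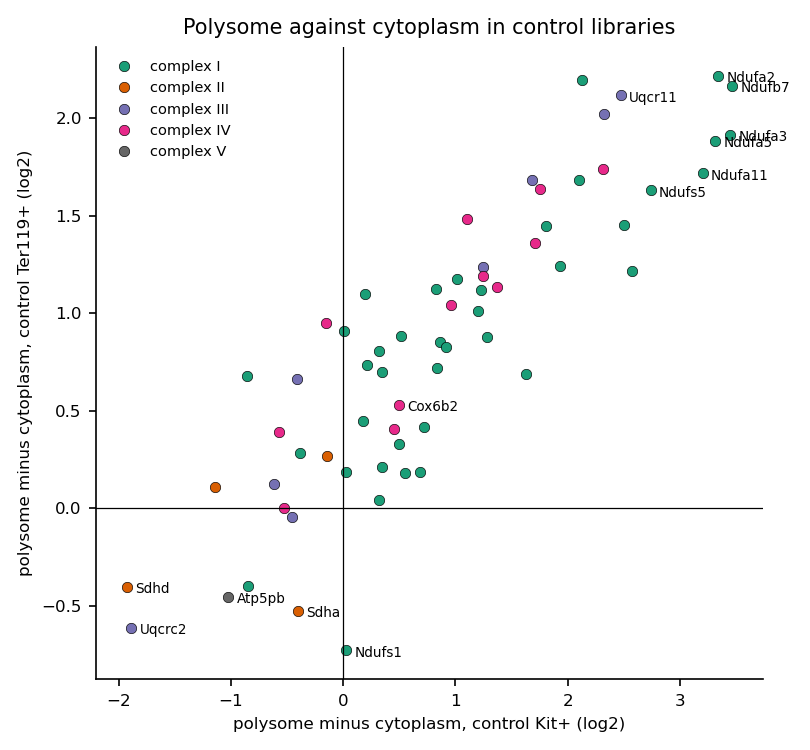
Log2 difference of polysome minus cytoplasm in control Kit+ cells (x axis) and control Ter119+ cells (y axis) for each respiratory chain gene (points, coloured by complex). The genes lie along a rising band, with Ndufb7 at 3.47 and 2.17 near its top and Sdhd (-1.93 in Kit+) and Uqcrc2 (-1.89 and -0.62) at its lower end.

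Across 64 genes the polysome-minus-cytoplasm differences of control Kit+ and control Ter119+ cells had a Pearson correlation of 0.88 (0.65 over 9952 genes), across genes and from different pools. Of the genes that were higher, 31 were shared, which is 31 of 36 in Kit+ and 31 of 40 in Ter119+ cells, and Uqcrc2 was lower in both. The difference between the cell types was called for 8 of 66 genes (2.26% of all genes, 1.04% positive and 1.22% negative). Ndufa3 (-1.53), Ndufa11 (-1.49 ± 0.27 (SE), adjusted p = 0.0141), Ndufa5 (-1.43), Ndufb7 (-1.30 ± 0.24 (SE), adjusted p = 0.0145), Ndufa2 (-1.12) and Ndufs5 (-1.11) were negative, with a smaller polysome surplus in Ter119+ than in Kit+ cells, and Sdhc (1.24 ± 0.30 (SE), adjusted p = 0.0404) and Sdhd (1.53 ± 0.34 (SE), adjusted p = 0.0337) were positive, both no longer called without the libraries under 2 M reads (adjusted p = 0.0818 and 0.102). This count was 0 without Rps19flox/+ Ter119+ replicate 2, and 2 to 5 without any one of Rpl5flox/+ Ter119+ replicates 1 and 2, Rpl5flox/+ Kit+ replicates 1, 2 and 3 or Rps19flox/+ Kit+ replicates 1 and 2. Outside globins and Lars2, 16 were positive and none negative, so the direction of this difference depends on the scaling (1 positive and 8 negative when rescaled; of all calls 96.5% and 32.7% were positive, against 45.9%).

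In the same control Kit+ fractions cytosolic ribosomal proteins were 59 higher and 9 lower of 84 on polysomes, mitochondrial ribosomal proteins 21 higher and 13 lower of 78, assembly factors 7 higher and 15 lower of 44, TCA cycle enzymes 1 higher and 8 lower of 16 and mitochondrially encoded mRNAs 1 higher and 11 lower of 13 (median -3.49). In control Ter119+ fractions cytosolic ribosomal proteins were 55 higher and 5 lower of 84, assembly factors 7 higher and 3 lower of 44, TCA cycle enzymes 0 higher and 7 lower of 16 and mitochondrially encoded mRNAs 1 higher and 12 lower of 13.

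On Kit+ polysomes of the Rps19 line, 10 genes of complex I were lower with VavCre and 1, Ndufa10, was higher. Both membrane anchors of complex II were higher. The Rps19flox/+ libraries of this comparison also enter the control comparison of polysome and cytoplasm. Of 66 genes, 6 rose and 13 fell in VavCre Rps19flox/+ libraries, where 9.86% of all genes were called (6.19% higher and 3.68% lower), and the median was -0.01, against 1.11 over all genes. In complex I 1 rose and 10 fell, in complex II 2 rose, in complex III 1 rose and 1 fell, in complex IV 1 rose and 2 fell, and Atp5pb rose. Ndufb7 had 3291, 3665 and 2985 in VavCre Rps19flox/+ Kit+ polysomes, against 19400, 18750 and 14370 in Rps19flox/+ (-2.39 ± 0.17 (SE), adjusted p = 7.19e-05). Ndufa5 had 2281, 2356 and 1351, against 10860, 11310 and 11650 (-2.53 ± 0.22 (SE), adjusted p = 0.000236). The groups were far apart for both genes. Ndufs5 (-2.31), Ndufa11 (-2.22), Ndufa2 (-2.08), Ndufa3 (-2.06), and Ndufb3 (-1.74) fell with them. Cox6b1 had 3533, 5001 and 6081, against 15200, 19150 and 19510 (-1.91 ± 0.36 (SE), adjusted p = 0.00966). Cox5a had 3766, 3999 and 3843, against 8246, 9460 and 10640 (-1.28 ± 0.32 (SE), adjusted p = 0.0334). Uqcrh had 5793, 7014 and 5253, against 22060, 22190 and 12930 (-1.63 ± 0.27 (SE), adjusted p = 0.00448). The falls thus reached complexes I, III and IV. Sdhd had 4271, 4186 and 4078, against 831, 1925 and 913 (1.86 ± 0.35 (SE), adjusted p = 0.00928). Atp5pb had 5899, 5666 and 5316, against 2326, 2643 and 3414 (1.02 ± 0.21 (SE), adjusted p = 0.0145). Sdhc had 2052, 2246 and 2433, against 955, 1075 and 1390 (0.98 ± 0.27 (SE), adjusted p = 0.0495). These rises were of single subunits in each complex but complex II. Uqcrc1 had 5777, 5424 and 6038, against 2035, 3165 and 2951 (1.10 ± 0.21 (SE), adjusted p = 0.0109), Ndufa10 had 3448, 3506 and 3124, against 955, 1227 and 1429 (1.49 ± 0.37 (SE), adjusted p = 0.0336). Cox8a had 9753, 11520 and 8047, against 4175, 6999 and 2541 (1.20 ± 0.33 (SE), adjusted p = 0.047).

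The libraries of this comparison differed in depth and makeup. The VavCre Rps19flox/+ libraries held 10.8, 24.4 and 37.6 M reads and the Rps19flox/+ libraries 1.01, 7.17 and 1.83 M. Lars2 took 0.382 to 4.51% of reads in VavCre Rps19flox/+ and 10.3 to 54.9% in Rps19flox/+ libraries, and mitochondrially encoded mRNAs 1.33 to 2.25% and 0.208 to 0.392%, with 5 higher and 1 lower of 13 called. Cytosolic ribosomal proteins were 5 higher and 28 lower of 84. Granulocyte and monocyte markers summed to 2450 to 5920 normalized counts in VavCre Rps19flox/+ and 22200 to 32200 in Rps19flox/+ libraries (0 higher and 2 lower of 7), erythroid markers to 89100 to 136000, against 172000 to 383000 (0 higher and 1 lower of 7), and B-lymphoid markers to 24.9 to 46.5, against 437 to 1910 (0 higher and 1 lower of 4). Hepatocyte markers were 0 higher and 1 lower of 10 (5630 to 15600, against 7520 to 33900) and macrophage markers 0 higher and 0 lower of 6 (176 to 328, against 122 to 561). In VavCre Rps19flox/+ libraries 1 B-lymphoid gene was at 0, and in Rps19flox/+ libraries 1 B-lymphoid and 2 macrophage genes. The part of these cells was not tested. Without the 3 Kit+ polysome libraries under 2 M reads Sdhd was no longer called (log2 change 1.11, adjusted p = 0.0769). The count was 10, 11 and 12 without VavCre Rps19flox/+ replicate 1, 2 or 3, and the genes that fell made up 10, 11 and 11 of these. Outside globins and Lars2, 13 rose and 12 fell, and 4 and 14 when rescaled, and 77.6% of all calls were higher outside globins and Lars2, against 62.7% on the deposited scale.

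**Figure D5:**
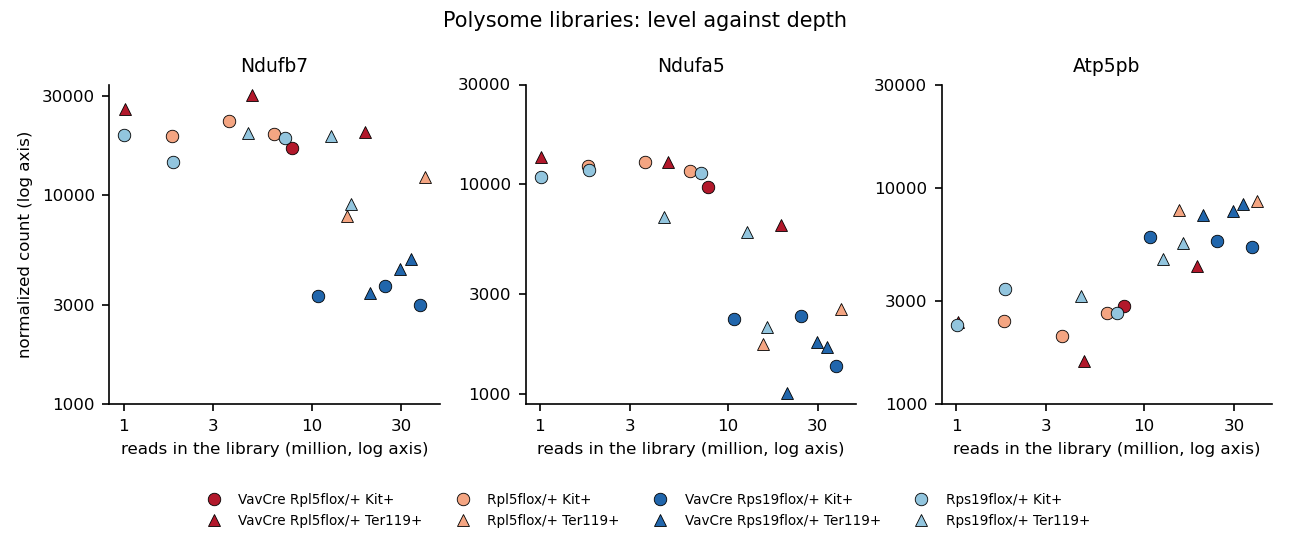
Normalized count (y axis, log scale) of Ndufb7, Ndufa5 and Atp5pb (one panel each) in each polysome library against its reads in M (x axis, log scale), coloured by genotype with a marker for the cell type. Ndufb7 lies between 2985 and 3665 in VavCre Rps19flox/+ Kit+ libraries, which hold 10.8 to 37.6 M reads, and between 14370 and 19400 in Rps19flox/+ Kit+ libraries, which hold 1.01 to 7.17 M.

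On Ter119+ polysomes the Rps19 line had 1 gene higher and 3 lower of 64 (0.801% of all genes called; 0.226% higher and 0.575% lower). Ndufb7 had 4959, 3422 and 4422 in VavCre Rps19flox/+, against 19310, 9039 and 19860 in Rps19flox/+ (-1.84 ± 0.33 (SE), adjusted p = 0.0311). Ndufa2 had 3519, 2572 and 2892, against 11690, 6439 and 11650 (-1.68 ± 0.31 (SE), adjusted p = 0.0311). Ndufa3 had 4331, 2596 and 3345, against 10170, 7338 and 9931 (-1.43 ± 0.28 (SE), adjusted p = 0.0392). These 3 fell in both cell types, and the remaining gene, Cox6b2, rose as given above. Summed erythroid markers were 6510000 to 11500000 in VavCre Rps19flox/+ and 14000000 to 20700000 in Rps19flox/+ libraries (0 higher and 0 lower of 7), and granulocyte and monocyte markers 1510 to 2060, against 3200 to 7030 (0 higher and 0 lower of 7). Macrophage markers summed to 355 to 738, against 747 to 4890, B-lymphoid markers to 0 to 16.1, against 78.6 to 111 (1 gene at 0 in each group), and hepatocyte markers to 7070 to 15800, against 7190 to 35800, with none of them called. The part of these cells was not tested. The count was 0 without any one library of this comparison except Rps19flox/+ replicate 2, without which it was 8. Of all calls 28.2% were higher, against 17.8% with libraries rescaled, where 1 of the genes was higher and 5 lower. Across 64 genes the Rps19 changes on Kit+ and Ter119+ polysomes had a Pearson correlation of 0.82 (0.51 over 9870 genes).

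The Rpl5 line on Ter119+ polysomes had 11 genes higher and 3 lower of 64, where 13.2% of all genes were called (2.96% higher and 10.3% lower), and the median was 0.14, against -1.004 over all genes. Ndufa5 had 12840, 6394 and 13490 in libraries labelled VavCre Rpl5flox/+, against 1726 and 2526 in Rpl5flox/+ (2.30 ± 0.53 (SE), adjusted p = 0.014). Ndufb1 had 13680, 7752 and 6456, against 2315 and 1833 (2.09 ± 0.40 (SE), adjusted p = 0.00476). Ndufb7 had 30180, 20120 and 25820, against 7947 and 12250 (1.34 ± 0.37 (SE), adjusted p = 0.032). All 3 stood above their control libraries, and Ndufa11 (1.61), Ndufb3 (1.54) and Ndufs5 (1.53) rose as well. Ndufa2 had 21880, 15000 and 16380, against 4568 and 6662 (1.66 ± 0.34 (SE), adjusted p = 0.00712). Cox5a had 8688, 8107 and 7065, against 2080 and 2944 (1.67 ± 0.43 (SE), adjusted p = 0.0241). Cox7c had 21060, 13580 and 13610, against 8283 and 7293 (1.02 ± 0.28 (SE), adjusted p = 0.0326). A few genes of complexes IV and V went down. Atp5pb had 1577, 4359 and 2406, against 7871 and 8658 (-1.69 ± 0.41 (SE), adjusted p = 0.0169). Cox8a had 5949, 8495 and 5451, against 13600 and 16820 (-1.22 ± 0.33 (SE), adjusted p = 0.0294). Cox6a1 had 8117, 9807 and 5421, against 13840 and 20170 (-1.14 ± 0.35 (SE), adjusted p = 0.0469), all on the deposited scale. Of the 11 that rose here, 8 were among the 13 that fell with Rps19 on Kit+ polysomes (Cox5a, Ndufa11, Ndufa2, Ndufa3, Ndufa5, Ndufb3, Ndufb7 and Ndufs5), and Atp5pb and Cox8a went the opposite way in the same pair of comparisons. Such lists share names even when unrelated, so this overlap is a description only. In limma the falls of Atp5pb and Cox8a lost their calls when rescaled (adjusted p = 0.227 and 0.563) and outside globins and Lars2 (0.134 and 0.282). They also lost them with only the groups compared (adjusted p = 0.0732 and 0.0727). Across 64 genes the changes in this pair of comparisons had a Pearson correlation of -0.67, and it was negative over all 9870 genes too (-0.33).

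This comparison rests on few and unequal libraries. Those labelled VavCre Rpl5flox/+ held 4.8, 19.1 and 1.02 M reads, with 28 to 57.8% on globins and 1.37 to 35.1% on Lars2, and the 2 Rpl5flox/+ libraries held 15.4 and 39.8 M, with 70.2 to 82.2% on globins and 0.165 to 4.47% on Lars2. Summed erythroid markers were 4650000 to 9760000 normalized counts in libraries labelled VavCre Rpl5flox/+ and 30500000 to 58700000 in Rpl5flox/+ libraries (0 higher and 7 lower of 7), granulocyte and monocyte markers 36100 to 89000, against 4340 to 6150 (4 higher and 0 lower of 7), and hepatocyte markers 41200 to 154000, against 21600 to 28900 (1 higher and 0 lower of 10). Macrophage markers were 0 higher and 0 lower of 7 (1190 to 1920, against 1290 to 2420) and B-lymphoid markers 0 higher and 0 lower of 3 (0 to 183, against 95.9 to 176, with 1 gene at 0 in the VavCre group). Their part was not tested. The count was 1 without Rpl5flox/+ replicate 1 or without replicate 2, 4 without VavCre Rpl5flox/+ replicate 1 and 19 without VavCre Rpl5flox/+ replicate 3. The rescaling gave 27 higher and 0 lower, and scaling outside globins and Lars2 20 and 0, with 55.3% and 48.6% of all calls higher, against 22.3% on the deposited scale. On Kit+ polysomes, with 1 VavCre Rpl5flox/+ library assumed to vary like the other groups, limma called none of 66 genes (1.82% of all genes, and 1008 of 10557 at an unadjusted p under 0.05).

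Whether a genotype changed the polysome level beyond its change in cytoplasm was tested over both fractions of each pool. With Rps19 in Kit+ cells 5 genes were positive and 8 negative of 66 (8.51% of all genes called, 5.81% positive and 2.7% negative), with a median of 0.10 against 1.19. Ndufb7 (-1.88 ± 0.20 (SE), adjusted p = 0.00169), Ndufa11 (-2.00 ± 0.28 (SE), adjusted p = 0.00657), Ndufa5 (-1.93), Ndufs5 (-1.78), Ndufa3 (-1.57), Cox6b1 (-1.56 ± 0.37 (SE), adjusted p = 0.0366), Ndufa2 (-1.42) and Ndufb10 (-1.11) were negative. Sdhd (2.01 ± 0.35 (SE), adjusted p = 0.0145), Cox7b (1.52 ± 0.37 (SE), adjusted p = 0.0388), Cox8a (1.42 ± 0.38 (SE), adjusted p = 0.0486), Atp5pb (1.38 ± 0.25 (SE), adjusted p = 0.0163) and Sdhc (1.06 ± 0.28 (SE), adjusted p = 0.0498) were positive. The count was 4, all negative, without any one VavCre Rps19flox/+ pool and 8 without Rps19flox/+ replicate 1, and Sdhd was no longer called without the libraries under 2 M reads (log2 1.25, adjusted p = 0.0637). Outside globins and Lars2, 11 were positive and 7 negative, and 3 and 10 when rescaled, with 84.8% of all calls positive outside globins and Lars2, against 68.3%. In Ter119+ cells limma called no gene of the 64 for either line (0.0184% of all genes were called with Rps19, where 1114 had an unadjusted p under 0.05, and 0.00918% with Rpl5, where 1586 did). Of the 64 genes, 8 were called with Rpl5 without VavCre Rpl5flox/+ replicate 2 and 3 with Rps19 without the libraries under 2 M reads.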

How the data were processed

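The authors deposited 1 table of log2 values, with 13449 genes in 45 libraries. Its values are a variance-stabilised log2 of reads over a size factor, as tested on the table. No aligner, counter or strand setting is named in the sources at hand, and mm10 is the build per the submitters' processing notes. Inverting the transformation gave whole reads for 100% of values (tolerance 1e-06) and from these the normalized counts. Of 43 replicate pairs none was a copy (lowest chi-square per degree of freedom 22.3).

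Genes averaging 10 or more normalized counts in a comparison's libraries were fitted on the deposited log2 values with limma 3.58.1 (R 4.3.3; lmFit and trended eBayes; two-sided), in place of the planned log2 of a normalized value plus 1. P-values were adjusted by Benjamini-Hochberg over all genes tested, with a threshold of 0.05. Genotype fits shared the spread of all 4 genotypes of a cell type and fraction. The pool was the block wherever fractions were compared, as both fractions come from the same cells. Replicate numbers paired libraries (every correlation of deviations over 0.1) in Rpl5 Kit+ cytoplasm (0.336 to 0.466), Rpl5 Ter119+ cytoplasm (0.198 to 0.426) and Rps19 Ter119+ cytoplasm (0.129 to 0.584). They also paired Ter119+ with Kit+ control cytoplasm in the Rps19 line (0.249 to 0.347), but not in the Rpl5 line (-0.13 to 0.132). Pools of the cell types may share fetuses, since Ter119+ cells were taken from what remained. The main fits between cell types within a fraction held no block for this. Separate litters are not stated for the pools, so p-values measure the spread between these libraries.

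Full values went, per complex and comparison, first to up to 2 genes called in each direction with the smallest adjusted p, to isoform pairs, and to all called where 5 or fewer were. Values of some single genes are not reported here. The planned item on the highest level per coding length was not applied, as no lengths were at hand. The members and lists were chosen with earlier results of these data known. Alternatives were log2 of the normalized count plus 1, voom on recovered reads, no filter, a mean of at least 100, rescaled libraries, reads outside globins and Lars2, the replicate block, only the groups compared, leaving out libraries under 2 M reads and leaving out each library. The fits were also run on counts simulated with a set spread and without differences between pools or in cell makeup. Such counts cannot show how the fits perform on the real polysome libraries, and the outcome is not reported here.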

Additional observations from a re-analysis of the deposited data

Results flagged for a closer look

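The tests of a difference between groups called some genes in 6 families. Between the lines in Kit+ cytoplasm 47 of 65 genes differed (48.2% of all genes), among them Ndufv3 (1.01, Rpl5 change minus Rps19 change, log2) and Cox5a (0.77). In Ter119+ cytoplasm it was 17 of 64, among them Cox5a (1.30) and Ndufb5 (1.23), where 41.5% of all genes were called, a larger share than among these genes. Between the cell types the Rpl5 change in cytoplasm differed for 15 of 65 genes, among them Ndufb5 (1.33, Ter119+ minus Kit+) and Sdhd (0.86). Of all genes 48.4% were called there, again a larger share. In the Ter119+ libraries labelled VavCre Rpl5flox/+, Rpl5 itself was not lower than in Rpl5flox/+ libraries, and Kit was higher. The Rps19 change differed for 4 of 65, among them Uqcrb (0.60) and Ndufs5 (0.51), where the share of all genes called was larger too (12.3%). The surplus on polysomes of control cells differed between Ter119+ and Kit+ cells for 8 of 66 genes (2.26% of all genes), among them Ndufa11 (-1.49) and Ndufb7 (-1.30). Both lost their limma call outside globins and Lars2 (-0.912, adjusted p = 0.0538, and -0.719, adjusted p = 0.0803). The polysome change with Rps19 in Kit+ cells differed from that in cytoplasm for 13 of 66 genes (8.51% of all genes), among them Ndufa11 (-2.00) and Ndufb7 (-1.88). No group held more than 3 libraries, so outlying values were not tested.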

How the results depend on the processing

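Scaled to reads outside globins and Lars2, an alternative chosen after seeing the data, the number called was 17 for Rpl5 in Kit+ cytoplasm, 62 for Rpl5 in Ter119+ cytoplasm, 8 for Rps19 in Ter119+ cytoplasm, 49 for the line difference in Ter119+ cells, 58 (Rpl5) and 11 (Rps19) for the differences between cell types and 16 for the polysome difference between control cell types. Rescaled on genes of at least 500 counts it was 61 for Rpl5 in Ter119+ cytoplasm, 27 for Rpl5 on Ter119+ polysomes, 48 for the line difference in Ter119+ cells and 26 (Rpl5) and 10 (Rps19) between cell types. Signs turned for Ndufv1 with Rpl5 in Ter119+ cytoplasm (0.059 rescaled, 0.205 outside globins and Lars2), for its line difference there (0.012 and 0.051), for Cox6a1 in Rpl5 Ter119+ cytoplasm (0.103 outside) and, between cell types with Rpl5, for Ndufb11 (0.001 outside) and Cox6a1 (0.093 outside), all of which lost their call. The median log2 value of all genes moved under the rescaling, and then outside globins and Lars2, by 0.51 and 0.64 (Rpl5, Ter119+ cytoplasm), 0.54 and 0.45 (Rpl5, Ter119+ polysome), 0.11 and 0.20 (Rps19, Ter119+ cytoplasm), 0.41 and 0.44 (lines, Ter119+), -0.40 and -0.93 (control cell types, cytoplasm), -0.25 and -0.35 (polysome), 0.17 and 0.69 (cell types, Rpl5), 0.10 and 0.24 (Rps19), 0.15 and -0.28 (polysome minus cytoplasm, Kit+), 0.36 and 0.20 (Ter119+), and -0.33 and -0.21 (Rps19) or 0.13 and -0.32 (Rpl5) for polysome beyond cytoplasm in Ter119+ cells. Under the rescaling alone it moved by -0.17 (Rps19, Ter119+ polysome) and 0.13 (lines, Kit+), and outside globins and Lars2 alone by 0.21 (Rps19, Kit+ polysome), 0.61 (polysome difference between cell types) and 0.21 (Rps19, Kit+, polysome beyond cytoplasm).

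Using only the groups compared gave 6 for Rpl5 and 8 for Rps19 on Ter119+ polysomes, where voom on recovered reads gave 12 for Rps19. Without libraries under 2 M reads the count was 1 for Rpl5 on Kit+ polysomes, 14 for Rps19 on Ter119+ polysomes, 5 for the polysome difference between control cell types and 3 for the polysome change beyond cytoplasm with Rps19 in Ter119+ cells. The cause of these changes was not tested.

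With the replicate number as a block, where it paired the libraries of a genotype comparison, 35 were called for Rpl5 in Kit+ and 29 in Ter119+ cytoplasm and 4 for Rps19 in Ter119+ cytoplasm. Cox7a2l lost its call in the last, and no other named call changed. Where numbers did not pair libraries, the block gave 14 for Rps19 on Ter119+ polysomes, against 4.

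Without single libraries the counts were 14 to 33 (Rpl5, Kit+ cytoplasm), 0 to 0 (Rpl5, Kit+ polysome), 24 to 32 (Rpl5, Ter119+ cytoplasm), 1 to 19 (Rpl5, Ter119+ polysome), 30 to 46 (Rps19, Kit+ cytoplasm), 10 to 21 (Rps19, Kit+ polysome), 2 to 3 (Rps19, Ter119+ cytoplasm), 0 to 8 (Rps19, Ter119+ polysome), 41 to 49 and 12 to 20 (lines, Kit+ and Ter119+), 42 to 46 and 17 to 28 (Ter119+ minus Kit+, cytoplasm and polysome), 13 to 21 and 1 to 8 (cell types, Rpl5 and Rps19), 40 to 46 and 33 to 43 (polysome minus cytoplasm, Kit+ and Ter119+), 0 to 8 (its difference between cell types), 4 to 17 (Rps19, Kit+, polysome beyond cytoplasm), 0 to 0 (Rps19, Ter119+) and 0 to 8 (Rpl5, Ter119+). Rpl5 on Kit+ polysomes was not run without its only VavCre library. Without single libraries, 116 counts stayed within 1.5 times their value and 38 did not, and of the named genes 428 values kept direction and call and 90 lost the call. Over all other alternatives together, 138 counts stayed within 1.5 times their value and 20 did not, and of the named genes 452 values kept direction and call, 34 lost the call and 7 turned sign. Whether depth limited what was called on polysomes was not tested.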
